A study of Mus musculus with 9 samples.

Results

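The genes described here are 9 genes of the plasminogen activator and kinin systems, chosen by name from the 49548 genes that are listed for every library. They are the plasminogen activators Plau and Plat, the urokinase receptor Plaur, the inhibitors Serpine2 and Serpinb2, the coagulation genes F3 and Thbd, and the kinin receptors Bdkrb1 and Bdkrb2. Each was matched by its gene symbol and joined across both deposited tables by its gene identifier. All 9 had a row, 7 of them were above 0 in each of the 9 libraries, Serpinb2 was above 0 in 1 library, and Bdkrb2 was at 0 throughout.

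RNA was measured by 3′ mRNA sequencing in primary synovial fibroblasts (SFs), the stromal cells that line the joint, cultured from ankle joints. The mice were CBA C57BL/6J and 8 weeks old. There were 3 libraries from wild-type (WT) mice, 3 from hTNFtg mice, which carry a human TNF transgene and develop chronic polyarthritis, and 3 from hTNFtg SFs kept for 48 hours with 1 µg/mL infliximab, an antibody that binds human TNF. For the WT and the untreated hTNFtg SFs the sample labels list no treatment, while the methods speak of vehicle. Every culture had been depleted of CD45+ cells at passage 1. The methods call the 3 replicates of a group biological, and whether animals were pooled is not given in the sources used here.

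Plasmin is the protease that dissolves fibrin and helps to break down the extracellular matrix. It is made from plasminogen by urokinase (Plau) and by tissue plasminogen activator (Plat), of which urokinase acts at the cell surface when it is held by its receptor, and serpin inhibitors block both activators. The arthritic joint is a known site of fibrin deposition and of kinin release, and kinins, cut from kininogens by kallikreins, act through the inducible B1 receptor (Bdkrb1) and the constitutive B2 receptor (Bdkrb2) to cause pain and vascular leakage.

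Values are counts that the authors had scaled library by library and then rounded, called normalized counts here. A read was worth 0.534 to 1.10 normalized counts in 8 libraries and 6.23 in hTNFtg replicate 1, the shallowest library, which held about 613343 reads on genes against 3829156 to 9015602 in the others. A gene with 3 reads, the limit taken here for a count of 0, stands at 18.7 normalized counts in that library and at 1.60 to 3.31 in the rest, and these floors cover counting error only. All 10 fibroblast marker genes had a mean of at least 10 normalized counts. Macrophage and leukocyte markers differed between the groups, and infliximab replicate 3 stood apart in liver genes, and both are given further on. In bulk libraries such as these, a smaller share of cells of a given type and less RNA per cell cannot be told apart.

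The sequence upstream of the start site was on hand from RefSeq (GRCm38.p6) for 5 of the 9 genes, namely Plaur, F3, Serpine2, Serpinb2 and Bdkrb2, and not for Plau, Plat, Thbd and Bdkrb1. Printed here are the 250 bases before the start site of Plaur, which differed most between the groups among the 5, of Serpine2, the gene with the highest level, and of F3, whose groups overlapped. Each is written 5′ to 3′ on the strand of its gene, and the capitals mark matches to the AP-1 motif (TGANTCA) or the GC box (GGGCGG) on either strand, where neighbouring GC boxes can share a base. The window of Plaur is chr7:24462233-24462482 on the plus strand, that of F3 is chr3:121723287-121723536 on the plus strand, and that of Serpine2 is chr1:79858666-79858915 on the minus strand, inside the span that the deposited tables give for the gene.
Plaur: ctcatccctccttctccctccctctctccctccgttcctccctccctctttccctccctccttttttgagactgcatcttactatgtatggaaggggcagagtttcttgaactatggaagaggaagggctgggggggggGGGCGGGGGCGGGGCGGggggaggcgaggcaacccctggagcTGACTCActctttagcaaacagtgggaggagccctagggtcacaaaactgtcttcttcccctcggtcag
F3: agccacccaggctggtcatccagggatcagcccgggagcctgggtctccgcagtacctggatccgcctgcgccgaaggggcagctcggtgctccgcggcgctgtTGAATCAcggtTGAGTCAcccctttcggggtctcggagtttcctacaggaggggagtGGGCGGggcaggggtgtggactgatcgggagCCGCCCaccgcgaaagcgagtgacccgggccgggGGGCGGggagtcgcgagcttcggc
Serpine2: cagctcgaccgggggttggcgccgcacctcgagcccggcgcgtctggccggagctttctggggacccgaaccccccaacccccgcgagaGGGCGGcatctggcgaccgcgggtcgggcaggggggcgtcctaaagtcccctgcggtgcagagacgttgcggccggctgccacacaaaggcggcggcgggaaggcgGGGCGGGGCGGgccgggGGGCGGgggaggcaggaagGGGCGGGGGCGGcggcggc

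The window of Plaur held 1 AP-1 match, TGACTCA, from 69 to 63 bases before the start, and 3 GC boxes. The window of F3 held 2 AP-1 matches, TGAATCA from 146 to 140 and TGAGTCA from 135 to 129 bases before the start, with 3 GC boxes. Serpine2 had 6 GC boxes and no AP-1 match, and its window was 78.8% G and C against 70% in F3 and 59.6% in Plaur. Over 32851 windows of 250 bases in the same table, 6.75% held an AP-1 match, 32.7% a GC box, 12.4% the TATA sequence TATAAA and 5.93% the kappaB consensus. No window of the 5 genes held a kappaB match, and of the 5 genes Serpinb2 alone had TATAAA in its windows. These matches describe the letters in the windows and do not show that a factor binds there.

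Serpine2 stood far above the other genes of the set in every group. Reads in 3′ libraries come from the end of each transcript and do not grow with its length, so levels were compared between genes without dividing by length, although capture can differ from gene to gene. Serpine2, which encodes the serpin protease nexin-1, was the highest of the 9 genes in every library, at 6075, 5599 and 5419 normalized counts in WT replicates 1, 2 and 3. It made up 0.108% to 0.152% of a library and ranked between 63 and 107 among all genes. Plau and Plat together came to 89 to 163 normalized counts, so that the level of Serpine2 was 30.5 to 72.2 times that of the activators.

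In WT SFs the order by mean was Serpine2, F3, Plat, Plaur, Thbd, Plau and Bdkrb1. Neighbours in this order did not overlap between libraries, apart from Plaur with Thbd and Thbd with Plau. In hTNFtg SFs Plaur stood before Plat, but the libraries of F3 overlapped those of Plaur and those of Plaur overlapped those of Plat. Overlaps were also seen there between Thbd and Plau and between Plau and Bdkrb1. With infliximab, Plaur and Plat overlapped, as did Plau and Bdkrb1, and Plaur again stood before Plat.

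**Figure D1:**
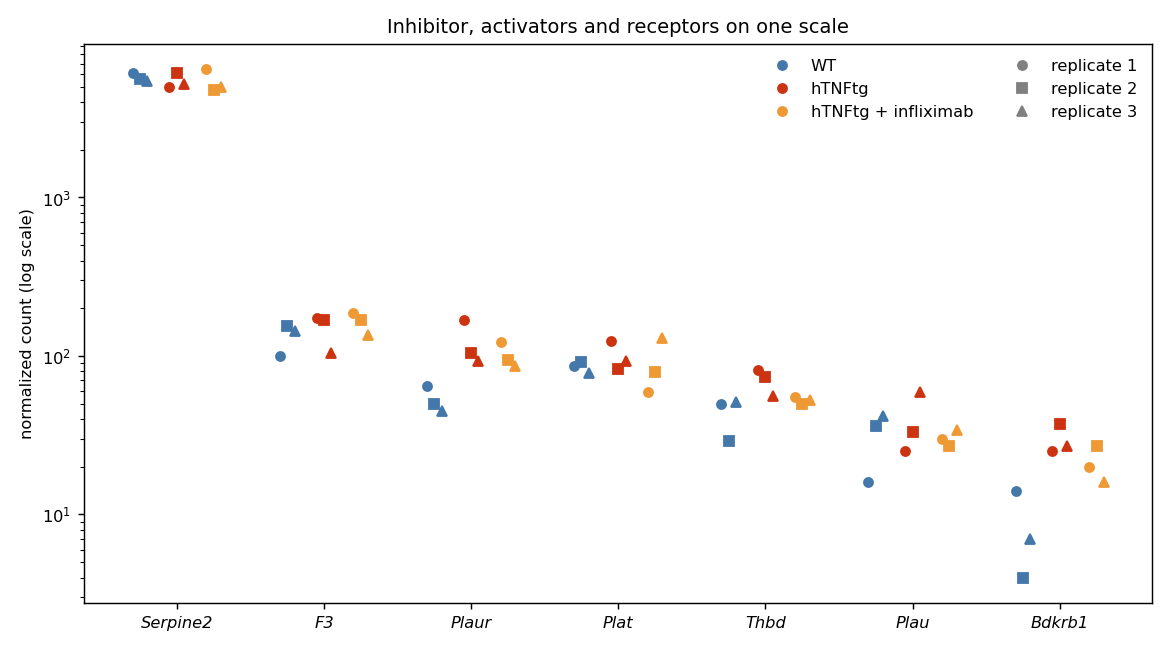
Normalized count (log scale) of 7 detected genes of the set in each of the 9 libraries, coloured by group, with the marker shape giving the replicate. Serpine2 lies between 4797 and 6427 in every library, whereas Bdkrb1 lies between 4 and 37.

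The activators themselves overlapped between the groups. Plau encodes urokinase and is found on chromosome 14 of mm10 (20836662 to 20843388). WT replicates 1, 2 and 3 had 16, 36 and 42 normalized counts, hTNFtg replicates 25, 33 and 59, and infliximab replicates 30, 27 and 34. The value of 25 in hTNFtg replicate 1 came from 4 reads (95% exact Poisson interval 6.79 to 63.8, counting error only). The log2 fold change of Plau in hTNFtg versus WT SFs was 0.32, with a standard error (SE) of 0.52 and a 95% confidence interval of -0.82 to 1.47 (limma adjusted p = 0.813). A rise by 1 on this scale lies within the interval.

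Plat, for tissue plasminogen activator, is found on chromosome 8 (22757727 to 22782844) and had the higher mean of the 2 activators in every group. WT libraries held 86, 92 and 78 normalized counts, hTNFtg libraries 125, 83 and 93, and infliximab libraries 59, 79 and 129. The infliximab libraries were the most spread out, with the lowest and the highest of the 9 values. Set against WT, hTNFtg SFs had a log2 fold change of 0.21 (adjusted p = 0.799, interval -0.48 to 0.91, SE 0.32). With infliximab it was -0.22 against untreated hTNFtg SFs (SE 0.36) and -0.012 against WT (SE 0.29). The corresponding values of Plau were -0.27 (SE 0.46) and 0.056 (SE 0.39).

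Plaur, which encodes the urokinase receptor uPAR, was raised in hTNFtg SFs. It is found on chromosome 7 (24462484 to 24475968). WT replicates 1, 2 and 3 had 65, 50 and 45 normalized counts and hTNFtg replicates 168, 105 and 93, so that every hTNFtg library was above every WT library. The means were 122 ± 40.3 (SD, n = 3) and 53.3 ± 10.4 (SD, n = 3), a ratio of 2.29. At 1.15 (SE 0.36, interval 0.37 to 1.93) its log2 fold change met the study's rule, which asks for a size of 1 or more together with a P below 0.05 before adjustment. After Benjamini-Hochberg adjustment over all 28522 genes tested it did not pass (limma adjusted p = 0.285, 0.0439 to 0.794 over the alternatives).

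The highest value of Plaur, 168 in hTNFtg replicate 1, rested on 27 reads (95% exact Poisson interval 111 to 245). Without that library the log2 fold change was 0.89, under the size that the rule asks for, and it lay between 0.89 and 1.32 with each library left out in turn. With infliximab the normalized count of Plaur was 123, 94 and 87, within the range of untreated hTNFtg SFs at its upper end and just under it at its lower end. The log2 fold change against untreated hTNFtg SFs was -0.23 (adjusted p = 0.846, interval -0.95 to 0.48, SE 0.33), an interval that leaves room for almost a change of 1 downward. Against WT, infliximab-treated SFs stayed higher in 3 of 3 libraries, with a log2 fold change of 0.91 (limma adjusted p = 0.153, interval 0.36 to 1.46, SE 0.25). This value missed the required size and reached it without WT replicate 1 (1.06) or without infliximab replicate 3 (1.02).

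**Figure D2:**
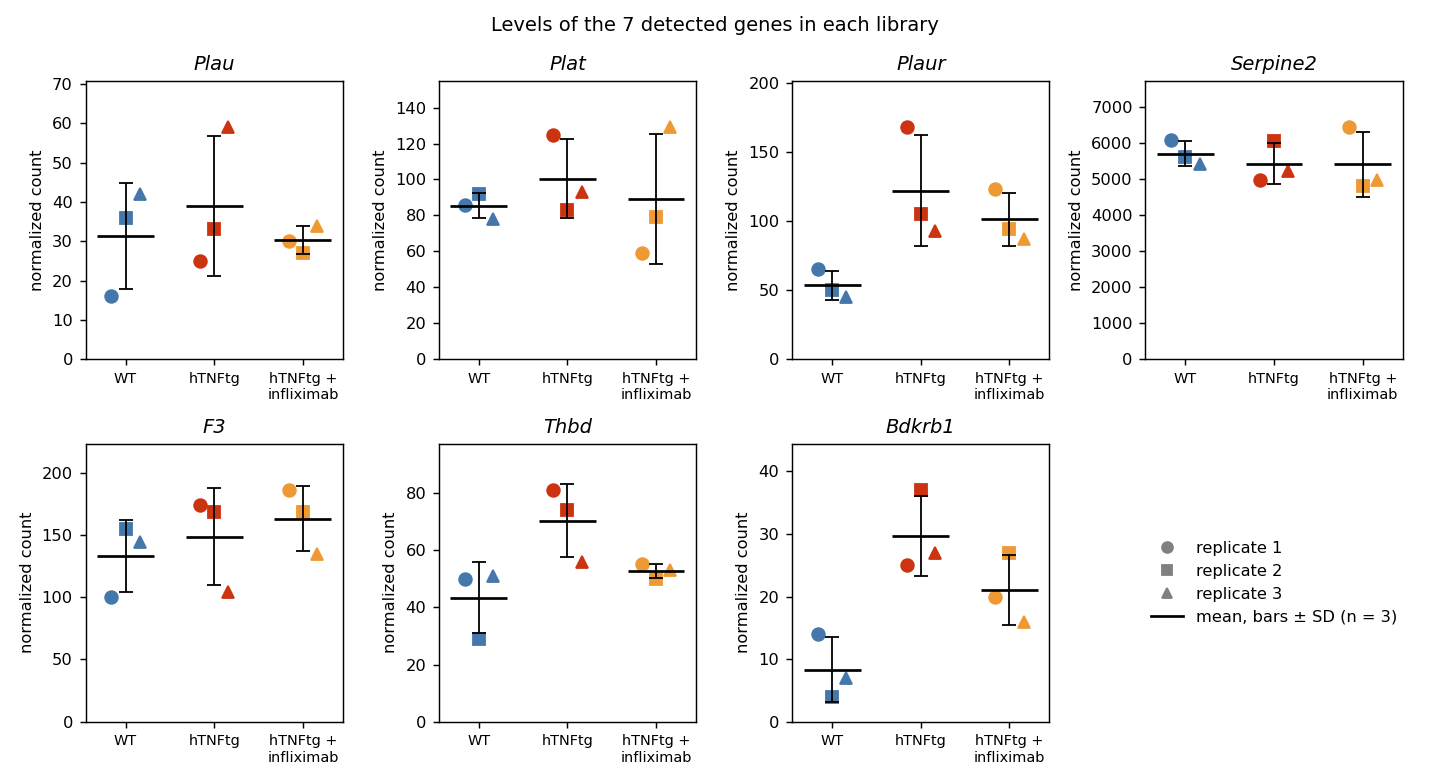
Normalized count of the 7 detected genes by group, each point a library, with the line at the mean and the bars at ± SD (n = 3). For Plaur and Bdkrb1 all hTNFtg and infliximab libraries lie above all WT libraries, while Plau, Plat, Serpine2 and F3 overlap between groups.

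The inhibitor Serpine2 is found on chromosome 1 (79794197 to 79861180) on the minus strand and blocks urokinase, tissue plasminogen activator and thrombin. hTNFtg libraries held 4976, 6057 and 5215 normalized counts and infliximab libraries 6427, 4797 and 4972, all close to the WT values given above. Its log2 fold change was -0.077 in hTNFtg versus WT SFs (SE 0.42, interval -1.003 to 0.85) and -0.012 with infliximab against untreated SFs (SE 0.43, interval -0.93 to 0.91). Against WT it was -0.089 with infliximab (SE 0.22). All of these turned positive after quantile normalization (0.062, 0.016 and 0.071), so no direction is given for this gene.

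Serpinb2, which encodes the inhibitor PAI-2, was not detectable at this depth. It is found on chromosome 1 (107511423 to 107535478) and was at 0 in 8 libraries and at 1 normalized count, about 2 reads, in hTNFtg replicate 3. Reads there could be shared with Serpinb10, which overlaps it on the same strand from 107529003 to 107549271, and Serpinb10 was at 0 in each of the 9 libraries. With both groups at or under 3 reads per library, no fold is given.

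F3, which encodes tissue factor, the receptor that starts coagulation, overlapped between groups. It is found on chromosome 3 (121723537 to 121735048). The normalized count was 100, 155 and 144 in WT, 174, 168 and 104 in hTNFtg, and 186, 168 and 135 in infliximab libraries. WT replicate 1 and hTNFtg replicate 3 were the lowest of the 9 libraries. Log2 fold changes were 0.15 in hTNFtg versus WT SFs (SE 0.33, interval -0.58 to 0.88), 0.16 with infliximab (SE 0.31) and 0.30 in infliximab-treated SFs versus WT (SE 0.23, interval -0.21 to 0.82).

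Thbd encodes thrombomodulin, the receptor that turns thrombin toward the activation of protein C. It is found on chromosome 2 (148404466 to 148408188) on the minus strand. WT replicates 1, 2 and 3 had 50, 29 and 51 normalized counts, hTNFtg replicates 81, 74 and 56, and infliximab replicates 55, 50 and 53. All hTNFtg libraries were above all WT libraries and above all infliximab libraries, but narrowly so in hTNFtg replicate 3. The 81 in hTNFtg replicate 1 came from 13 reads (95% exact Poisson interval 43.1 to 138). That interval reached under the highest WT and infliximab values. Against WT, hTNFtg SFs stood at a log2 fold change of 0.71 (adjusted p = 0.726, interval -0.13 to 1.56, SE 0.39) and infliximab-treated against untreated SFs at -0.39 (adjusted p = 0.803, interval -1.14 to 0.35, SE 0.34). Neither passed the study's rule, and infliximab-treated SFs stood at 0.32 against WT (SE 0.29).

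Thrombomodulin is best known from the endothelium, and markers of endothelial cells were examined beside it. Of 10 such genes, 1 had a mean of at least 10, Egfl7, at 106 to 295 normalized counts. Tie1 was at 0 in every library and Pecam1, Cdh5 and Kdr were at most at 3. The summed level of the list was 286 to 327 in WT, 118 to 249 in hTNFtg and 195 to 239 with infliximab libraries. Egfl7 made up most of each sum, and the hTNFtg and infliximab ranges overlapped. Macrophage and leukocyte genes, given further on, were also higher in hTNFtg than in WT libraries. The part of either cell type in the level of Thbd was not tested.

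The kinin receptor Bdkrb1 was raised in hTNFtg SFs. It is found on chromosome 12 (105603085 to 105605428) and encodes the B1 receptor, which is known to be induced in inflamed tissue. WT replicates 1, 2 and 3 had 14, 4 and 7 normalized counts, hTNFtg replicates 25, 37 and 27, and infliximab replicates 20, 27 and 16. All libraries with the transgene, treated or not, were above all WT libraries. The mean was 29.7 ± 6.43 (SD, n = 3) in hTNFtg and 8.33 ± 5.13 (SD, n = 3) in WT SFs, a ratio of 3.56. Its log2 fold change of 1.84 (SE 0.64, interval 0.44 to 3.24) met the study's rule but not the adjusted threshold (limma adjusted p = 0.388, 0.0272 to 0.831 over the alternatives).

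These are low counts, from 5 to 14 reads in the WT libraries, 4 reads in hTNFtg replicate 1 and 43 and 51 reads in the other hTNFtg libraries. The 95% exact Poisson interval of hTNFtg replicate 1 ran from 6.79 to 63.8 normalized counts and so reached under the WT maximum. Leaving out each library in turn kept the log2 fold change between 1.47 and 2.26, and without hTNFtg replicate 2 it was 1.68 and its P was no longer under 0.05. With infliximab the log2 fold change against untreated hTNFtg SFs was -0.49 (adjusted p = 0.803, interval -1.56 to 0.58, SE 0.50).

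Infliximab-treated hTNFtg SFs still had a raised level of Bdkrb1 against WT, 21 ± 5.57 (SD, n = 3), a ratio of 2.52. On the log2 scale this was 1.35 (SE 0.52, interval 0.20 to 2.51), past the study's rule, with an adjusted p of 0.324 (limma, 0.132 to 0.617 over the alternatives). This call was lost without any 1 of WT replicate 2 (0.98), WT replicate 3 (1.31), infliximab replicate 1 (1.37) and infliximab replicate 2 (1.16). It was also lost with the replicate number as a block (1.35).

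Bdkrb2, for the B2 receptor, was listed at 0 in all 9 libraries. It lies 10013 bases before Bdkrb1 on the same strand of chromosome 12, from 105563172 to 105593071 in the deposited tables. In the GENCODE M21 annotation the gene ends 2166 bases further downstream, at 105595237, whereas the 3′ ends of the other 8 genes match it to within 3 bases. Reads in 3′ libraries lie near the transcript's end, and reads past the deposited end of Bdkrb2 were not looked for. Of protein-coding genes whose M21 end lies over 1000 bases beyond the deposited end, 286 of 787 (36.3%) were at 0 in all libraries, against 3908 of 21073 (18.5%) of the others. Whether the deposited gene end has a part in the 0 for Bdkrb2 was not tested. The 0 is given as a value of the tables and not as absence of the receptor.

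By the study's rule, 2 of the 8 genes tested (Plaur and Bdkrb1) were raised and 0 lowered in hTNFtg versus WT SFs, where 3.35% of all genes tested were raised and 3.04% lowered. Bdkrb2 was not tested, being at 0. The set was chosen with earlier results of these data known, so an excess over the share of all genes is not independent support. The libraries of 3 of the 8 (Plaur, Thbd and Bdkrb1) lay wholly above the WT libraries, which held for 5.63% of all genes, and 0 lay wholly below, which held for 5.8%. The median log2 fold change of the 7 detected genes, without Serpinb2, was 0.32. That of all genes tested was 0.00, and that of all genes with a mean of at least 10 was -0.068. With adjustment over all genes, limma called 0 of the 8 and 137 genes in all, 0.48%. After adjustment edgeR on approximate reads also called 0 of the 8, where 3.22% of all genes passed. Before adjustment 2 of the 8 had a P under 0.05 in limma's test, and the share of all genes with such a P was not counted.

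Between infliximab-treated and untreated hTNFtg SFs, 0 of the 8 genes tested passed the rule, against 1.49% of all genes raised and 0.936% lowered. In limma's test 0 of the 8 had an unadjusted P under 0.05, a share that was not counted over all genes. Thbd was the only gene of the 8 whose infliximab libraries all lay below the untreated libraries, which 3.44% of all genes did, and none lay wholly above, as 3.99% did. Without Serpinb2 the median log2 fold change was -0.23, with 0.00 over all genes and 0.040 over those with a mean of at least 10. Adjusted over all genes, 0.0% passed in limma's test and 165 genes in edgeR's, none of the 8 among them. The untreated hTNFtg libraries enter this comparison and the one against WT, so values of opposite sign in the comparisons are not independent of each other.

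Against WT, infliximab-treated hTNFtg SFs had 1 raised gene, Bdkrb1, of 7 tested, against 3.86% of all genes raised and 2.95% lowered. Plaur and Bdkrb1 lay wholly above the WT libraries, 2 of 7, which held for 7.14% of all genes, and 0 lay wholly below, which held for 7.07%. The median log2 fold change of the 7 was 0.30, with 0.00 over all genes and -0.010 over those with a mean of at least 10. Before adjustment 2 of the 7 had a P under 0.05 in limma's test, a share that was not counted over all genes. After adjustment 0 of the 7 passed in limma's test, which then called 0.74% of all genes. By edgeR on approximate reads, which called 4.68% of all genes, Plaur had a log2 fold change of 0.94 with an adjusted p of 0.0392 (0.0392 to 0.410 over the alternatives).

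**Figure D3:**
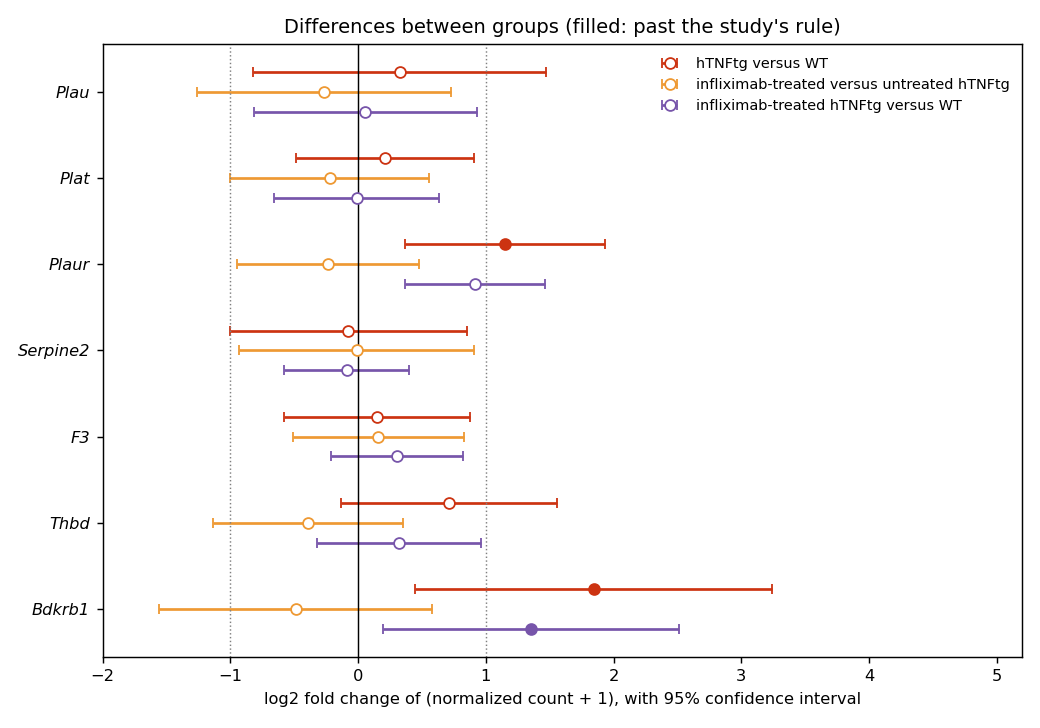
Log2 fold change of the normalized count plus 1 for the 7 detected genes in 3 comparisons, with 95% confidence intervals from limma, filled where the gene passed the study's rule. Filled points are Plaur (1.15) and Bdkrb1 (1.84) in hTNFtg versus WT SFs and Bdkrb1 (1.35) in infliximab-treated hTNFtg versus WT SFs, and the dotted lines mark a log2 fold change of 1 in size.

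Plaur is also known from macrophages, and markers of macrophages and other leukocytes moved with the groups. The summed normalized count of 14 macrophage and leukocyte genes was 193 to 661 in WT, 3121 to 6426 in hTNFtg and 2015 to 4113 in infliximab libraries. Lyz2, for lysozyme, led the list, and without it the sums were 150 to 384, 837 to 2602 and 738 to 1441. Of the 14 genes, 9 had a mean of at least 10, and the T cell gene Cd3e, the B cell gene Cd79a and the neutrophil gene Ly6g were at 0 in all libraries. Ptprc, which encodes CD45, was at 0, 3 and 0 in WT, at 31, 9 and 12 in hTNFtg and at 28, 8 and 22 with infliximab. Thbd and the pathway genes Mrc2, S100a10, Tgm2 and Xpnpep1, described further on, had their lowest mean in WT and their highest in hTNFtg libraries, as this list did. The part of these cells in the levels of Plaur, Bdkrb1, Thbd and these 4 genes was not tested. Smooth muscle and pericyte genes, 8 in number and led by Acta2, summed to 1981 to 3839 in WT, 4318 to 5543 in hTNFtg and 3696 to 5097 with infliximab. Without Acta2 the sums overlapped between WT and hTNFtg libraries, at 532 to 636, 633 to 859 and 728 to 835. The pericyte gene Rgs5 was at 25 to 31 in WT, at 0 to 4 in hTNFtg and at 9 to 21 with infliximab.

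**Figure D4:**
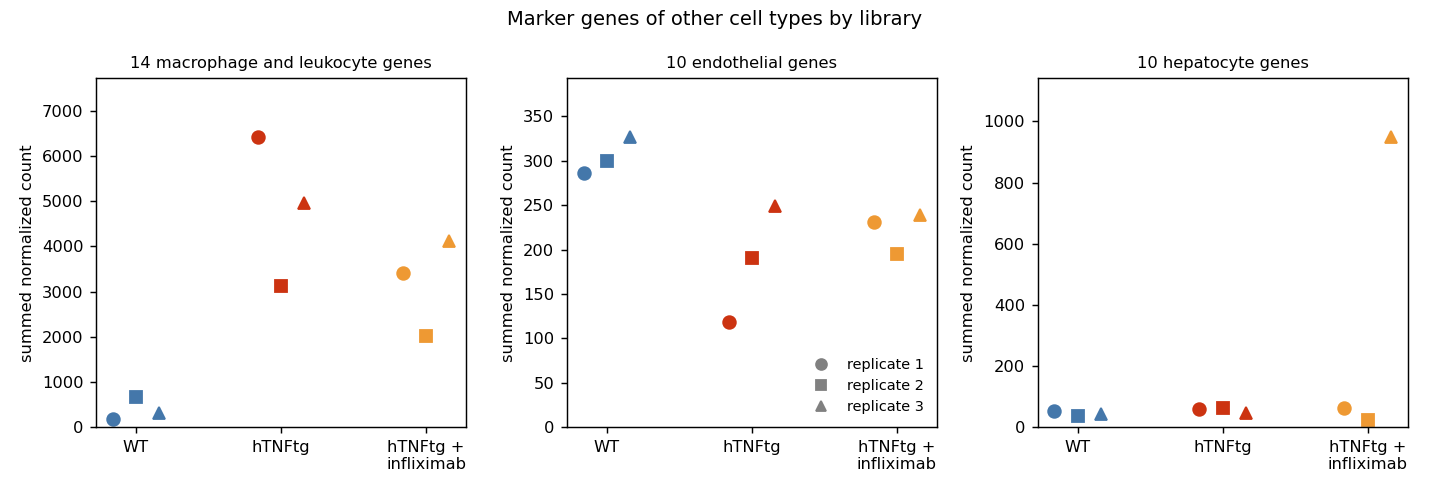
Summed normalized count of marker genes of other cell types in each library, by group and replicate. The macrophage and leukocyte sum is at most 661 in WT libraries and at least 2015 in the others, and the hepatocyte sum is 950 in infliximab replicate 3 against at most 63 elsewhere.

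A further 61 genes of the plasminogen, coagulation and kinin systems were counted beside the 9. In hTNFtg versus WT SFs 4 of 58 tested were raised (Mrc2, Tgm2, Xpnpep1 and Fgb, the last with a mean under 10) and 1 was lowered (Kng2), together 8.62% against 6.39% of all genes in either direction. With infliximab 2 of 59 were raised (Cpb2 and Sorl1, both with a mean under 10) and 0 lowered, 3.39% against 2.43% of all genes. Against WT, infliximab-treated SFs had 2 of 59 raised (Tgm2 and Tfpi2) and 3 lowered (Klkb1, Mme and F13a1), with Tfpi2 and F13a1 at a mean under 10, together 8.47% against 6.81% of all genes. Adjusted over all genes, the limma fit used for these calls gave 0 of the 61 in any comparison. Before adjustment 8, 3 and 11 had a P under 0.05 in the order above, and the share of all genes with such a P was not counted. edgeR on approximate reads gave 1 (Kng2), 1 (F2) and 9 genes with an adjusted p under 0.05, where 3.22%, 0.578% and 4.68% of all genes passed. Of these 9, 5 are plasma genes of the liver (F2, Fga, Fgb, Fgg and Plg) that are taken up below, and the others were Kng2, Mme, Tgm2 and Vkorc1. With array quality weights, limma gave 3 genes with an adjusted p under 0.05 in hTNFtg versus WT SFs, namely F2r (0.0266), Xpnpep1 (0.0269) and Kng1 (0.0479), and 0 in each of the other comparisons, against 3.52%, 0.228% and 1.34% of all genes. With limma's robust eBayes the adjusted p was 0.0474 for Kng2 in hTNFtg versus WT SFs, and 0.0212 for Kng2, 0.0114 for Mme and 0.000643 for Tgm2 in infliximab-treated hTNFtg versus WT SFs, where it called 1.62% and 4.19% of all genes. The number called in hTNFtg versus WT SFs was 2 without WT replicate 2 and 8 without hTNFtg replicate 1, and with infliximab it was 4 without hTNFtg replicate 1, 1 without hTNFtg replicate 2 or 3 and 0 without infliximab replicate 3. Against WT it was 1 without WT replicate 2 or infliximab replicate 3. Serpina5 and F11 were at 0 in all libraries.

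Of the 19 plasminogen genes, 18 were tested and Mrc2 alone passed in hTNFtg versus WT SFs, 5.56% against 6.39% of all genes. It encodes a collagen receptor that associates with uPAR. Its normalized count was 53, 36 and 132 in WT, 181, 149 and 104 in hTNFtg, and 82, 104 and 86 in infliximab libraries, with WT replicate 3 above the lowest hTNFtg library. The log2 fold changes were 1.14 in hTNFtg versus WT SFs (adjusted p = 0.536, SE 0.46) and -0.64 with infliximab (SE 0.32). The call of Mrc2 was lost without any 1 of WT replicate 1 (1.02), WT replicate 2 (0.75), hTNFtg replicate 1 (0.96) and hTNFtg replicate 2 (1.10). It was also lost with edgeR (0.86) and with the replicate number as a block (1.14).

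S100a10, a plasminogen-binding partner of annexin A2, was at 246, 381 and 468 in WT, 610, 599 and 834 in hTNFtg, and 418, 393 and 408 in infliximab libraries, and the hTNFtg libraries lay above all others. Its log2 fold changes of 0.93 (adjusted p = 0.395, SE 0.32) and -0.73 with infliximab (adjusted p = 0.803, SE 0.28) were under the size of 1. Against WT it reached that size without WT replicate 3 (1.13), hTNFtg replicate 1 (1.00) or hTNFtg replicate 2 (1.01).

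Lrp1, the receptor that takes up complexes of activators and inhibitors, was at 593 to 711 in WT and 936 to 1004 in hTNFtg, and at 727 to 948 with infliximab. Its log2 fold change of 0.59 in hTNFtg versus WT SFs (adjusted p = 0.684, SE 0.28) did not pass. Anxa2 was at 5011 to 7432 in WT, 3164 to 12552 in hTNFtg and 5376 to 6789 with infliximab, and the plasminogen receptor gene Plgrkt at 103 to 156, 74 to 125 and 78 to 119. Plasminogen itself, Plg, was at 0 in 7 libraries, at 2 in hTNFtg replicate 2 and at 22 in infliximab replicate 3.

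That last library also stood apart in liver genes. Those summed here were 12 plasma protein genes, Plg, Serpinf2, Vtn, Cpb2, F2, F7, Proc, Serpinc1, Fga, Fgb, Fgg and F12. The summed normalized count was 349 in infliximab replicate 3 and 13 to 44 in the other 8 libraries. Prothrombin (F2) was at 127 there and the fibrinogen chains Fgg and Fgb at 33 and 32. Kng1, Kng2 and Klkb1, which also encode plasma proteins, are not among the 12. They were at 47, 49 and 10 in infliximab replicate 3, within the range of the other libraries. The 10 hepatocyte markers summed to 950 in that library and to 25 to 63 elsewhere. Without this library, 0 of the 61 genes were called between infliximab-treated and untreated hTNFtg SFs. Against WT 1 was called without it, and 1 also without WT replicate 2. Of the genes called in these comparisons with all libraries, Cpb2 alone is among the 12. The part of the liver genes in these counts was not tested.

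Among the 27 coagulation genes, 2 of 25 tested passed in hTNFtg versus WT SFs (Fgb and Tgm2), 8% against 6.39% of all genes. Tgm2, which encodes the transglutaminase that cross-links fibrin and matrix proteins, was raised in hTNFtg SFs. The normalized count was 196, 52 and 59 in WT, 274, 188 and 153 in hTNFtg, and 209, 147 and 255 in infliximab libraries, and WT replicate 1 overlapped both other groups. Its log2 fold changes were 1.23 in hTNFtg versus WT SFs (adjusted p = 0.511, SE 0.48) and 1.22 in infliximab-treated SFs versus WT (adjusted p = 0.303, SE 0.45). Against WT the call of hTNFtg SFs was lost without any 1 of WT replicates 2 (0.88) and 3 (0.97) and hTNFtg replicates 1 (1.00) and 2 (1.27), and with edgeR (0.93). That of infliximab-treated SFs was lost without WT replicate 2 (0.88), WT replicate 3 (0.97) or any 1 of the infliximab libraries (1.04 to 1.44).

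F2r, the thrombin receptor PAR1, was at 441, 509 and 557 in WT, 187, 240 and 389 in hTNFtg, and 366, 278 and 383 in infliximab libraries. All its hTNFtg libraries were below WT, with a log2 fold change of -0.94 (adjusted p = 0.385, SE 0.33) that missed the size of 1 and passed without WT replicate 1 (-1.03) or hTNFtg replicate 3 (-1.24), and with array quality weights (-1.02, adjusted p = 0.0266). Procr, the protein C receptor, was at 103 to 150, 131 to 229 and 158 to 274 in WT, hTNFtg and infliximab libraries, Tfpi, the inhibitor of tissue factor, at 34 to 46, 13 to 75 and 36 to 56, and F2rl1, for the receptor PAR2, at 2 to 3, 0 to 11 and 1 to 4.

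Of the 15 kinin genes, all tested, 2 passed in hTNFtg versus WT SFs, 13.3% against 6.39% of all genes. The kininogen gene Kng2 was lowered and Xpnpep1, whose aminopeptidase inactivates bradykinin, was raised in hTNFtg SFs. Kng2 was at 183, 120 and 139 normalized counts in WT, 19, 89 and 51 in hTNFtg, and 93, 87 and 49 in infliximab libraries, with every WT library above the rest. The 19 in hTNFtg replicate 1 corresponds to about 3 reads, at the limit for a count of 0 in that library. The log2 fold changes were -1.69 in hTNFtg versus WT SFs (adjusted p = 0.252, SE 0.50), 0.71 with infliximab against untreated SFs (SE 0.51) and -0.97 with infliximab against WT (adjusted p = 0.192, SE 0.29). Without hTNFtg replicate 1 the first value was -1.09 and kept its call. That call was lost without WT replicate 1 (-1.52), with array quality weights (-0.88) and with the replicate number as a block (-1.69). The second ranged from 0.12 without hTNFtg replicate 1 to 1.21 without hTNFtg replicate 2, where it passed the rule, and was -0.0113 with array quality weights. Against WT the infliximab-treated SFs passed without WT replicate 2 (-1.11) or 3 (-1.002) or infliximab replicate 1 (-1.14) or 2 (-1.09).

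Kng1, a near-identical neighbour among which reads may be split, was at 61, 36 and 48 in WT, 56, 12 and 14 in hTNFtg, and 34, 19 and 47 in infliximab libraries (log2 fold change -1.11 in hTNFtg versus WT SFs, adjusted p = 0.726, SE 0.59), and it did not pass the study's rule. It passed without hTNFtg replicate 1 (-1.79), with edgeR (-1.29), with array quality weights (-1.58) and with robust eBayes (-1.11). Whether reads were split between these kininogen genes was not tested, so the value of either alone may be uncertain.

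Xpnpep1 was at 61, 89 and 110 in WT, 174, 195 and 177 in hTNFtg, and 140, 125 and 105 in infliximab libraries. Every hTNFtg library lay above all others, with a log2 fold change of 1.10 against WT (adjusted p = 0.237, SE 0.32) and of -0.57 with infliximab (adjusted p = 0.803, SE 0.28), and the call against WT was lost without WT replicate 1 (0.87). Infliximab-treated SFs stood at 0.53 against WT (SE 0.26). Klkb1, for plasma prekallikrein, and Mme, for the kinin-degrading enzyme neprilysin, were lowered in infliximab-treated SFs against WT. Klkb1 was at 18, 23 and 13 in WT, 12, 11 and 6 in hTNFtg, and 4, 4 and 10 in infliximab libraries (log2 fold change -1.51, adjusted p = 0.262, SE 0.52, lost without WT replicate 2 at -1.33). These are low counts, at most 26, 13 and 14 reads in a library of these groups. The 12 in hTNFtg replicate 1 is under that library's floor of 18.7. The values of 4 lie just above the floors of infliximab replicates 1 and 2 (3.31 and 2.70). Mme was at 72, 118 and 154 in WT, 100, 67 and 20 in hTNFtg, and 52, 76 and 32 in infliximab libraries (log2 fold change -1.11, adjusted p = 0.250, SE 0.37), and infliximab replicate 2 overlapped WT. Its call was lost without WT replicate 2 (-1.05), WT replicate 3 (-0.86), infliximab replicate 1 (-1.13) or infliximab replicate 3 (-0.79). The call of Mme was also lost with all 9 libraries in a single fit (-1.11) and with the replicate number as a block. Serping1, the inhibitor of kallikrein and of C1, was at 349 to 499 in WT, 273 to 1096 in hTNFtg and 429 to 494 with infliximab.

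For each of the 5 genes of the set with a mean of at least 50, the 3 most alike of 8630 genes were named by Pearson's r of log2 values over the 9 libraries, as a description with no test. Plaur was most like Thy1 (0.977), Sulf1 (0.970) and Nfkbiz (0.968). Thy1, a fibroblast surface gene, was at 414, 403 and 354 in WT, 797, 596 and 527 in hTNFtg, and 612, 606 and 542 in infliximab libraries. Pdpn, another fibroblast marker, was also higher in every hTNFtg library than in any WT library, whereas Pdgfrb was lower, at 1172, 847 and 787 in WT, 585, 591 and 462 in hTNFtg, and 646, 829 and 807 in infliximab libraries. All 10 fibroblast genes summed to 39227 to 50135 in WT, 35323 to 40682 in hTNFtg and 32318 to 37365 with infliximab. Thbd was most like Ninl (0.939), Def6 (0.938) and Cdk8 (0.932), and F3 most like Nsf (0.937), Cenpa (0.915) and Nol10 (0.853). For Plat the genes were Rap1a (0.904), Lpcat3 (0.890) and Oxa1l (0.888), and for Serpine2 they were Naa50 (0.900), Napepld (0.873) and Ddhd2 (0.816). The highest of 8630 values over 9 libraries, which share depth and processing, is high for any gene.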

How the data were processed

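Reads of 9 QuantSeq 3′ libraries (Ion Proton) were, per the labels and the methods, mapped to mm10 with TopHat2, the unmapped reads with Bowtie2, and counted per gene with GenomicRanges. Versions are not given in the sources used here. The authors deposited, for each gene and library, a score, namely a read count per gene that was scaled with the same factor for all genes of a library and then rounded. In hTNFtg replicate 1 the deposited signal fell on whole reads times 6.23 for 100% of values up to 200 (within 0.5 normalized counts), and other libraries gave approximate reads. The p-value, fold change and mean columns of the authors and 24 per-sample columns in other forms (log2 and rpgm) were not used.

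Groups of 3 were compared with limma 3.58.1 (lmFit, eBayes with trend, R 4.3.3) on log2 of the normalized count plus 1, leaving out genes at 0 in all 6 libraries. The design assumed normalized counts for all libraries and was kept. Calls followed the study's rule, a log2 fold change of size 1 or more with P below 0.05, with Benjamini-Hochberg adjusted p beside it. On the reads, edgeR 4.0.16 (quasi-likelihood) called 2452, 1228 and 2094 genes by that rule in hTNFtg versus WT, infliximab-treated versus untreated and infliximab-treated versus WT SFs, against 1823, 693 and 1923 by limma. For Klkb1 and Itgam, with more than a single row, the row with the higher mean was used.

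Alternatives were another pseudocount, a filter at a mean of 10, quantile and median-ratio scaling, array quality weights, robust eBayes, a replicate block, all 9 libraries in a single fit, edgeR, and each library left out. The genes of the set and all lists were chosen with earlier results of these data known. Named beyond the set were pathway genes called in any comparison with a mean of at least 10, and 12 genes whatever their values. A further gene that the rule names is not reported here.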

Additional observations from a re-analysis of the deposited data

How the results depend on the processing

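By the study's rule, 2 genes of the set passed in hTNFtg versus WT SFs under every alternative that kept all libraries, and 1 to 2 with each library left out (Bdkrb1 without hTNFtg replicate 1, Plaur without hTNFtg replicate 2). With infliximab against untreated hTNFtg SFs, 0 passed under every alternative. Against WT, infliximab-treated SFs had 1, and 0 to 2 with each library left out. The adjusted threshold was passed with array quality weights in hTNFtg versus WT SFs by Plaur (log2 fold change 1.05, adjusted p = 0.0439) and Bdkrb1 (2.31, adjusted p = 0.0272), a setting under which 1004 genes in all passed it against 137.

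Of the other pathway genes, 5 passed in hTNFtg versus WT SFs, 14 with array quality weights and 2 to 8 with each library left out. With infliximab 2 passed, against 0 with a pseudocount of 5, a mean of at least 10 or robust eBayes, 1 with all 9 libraries in a single fit, 5 with array quality weights, 10 with edgeR and 0 to 4 with each library left out. Against WT 5 passed, against 3 with a pseudocount of 5 or a mean of at least 10, 2 with all 9 libraries, 8 with robust eBayes, 14 with edgeR and 1 to 4 with each library left out. Of all genes, array quality weights called 12.4%, 7.51% and 8.28% in these comparisons, edgeR 8.60%, 4.30% and 7.41%, and robust eBayes 6.62%, 2.54% and 7.72%. The causes were not tested.

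Replicate numbers did not pair the samples throughout, since the correlation of deviations between libraries of the same number ran from -0.147 to 0.353. Between untreated and infliximab-treated hTNFtg libraries it was 0.0698, 0.197 and 0.265 for replicates 1, 2 and 3. Unlike numbers of these groups gave -0.256 to 0.126. With the replicate number as a block, the calls in the set became 2, 0 and 0 in the comparisons as ordered above, and Bdkrb1 in infliximab-treated SFs versus WT kept its log2 fold change of 1.35 but not its call. The pathway genes called became 3, 1 and 4, without Mrc2 and Kng2 in the first and Mme in the third, and the genes called overall became 1659, 605 and 1698, with 0 past the adjusted threshold.

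Some log2 fold changes that did not pass turned sign. Serpine2 was at 0.0623 (quantile) and 0.0533 (array weights) in hTNFtg versus WT SFs, at 0.0161 (quantile) and 0.0387 (edgeR) with infliximab, and at 0.0709 (quantile) against WT. In infliximab-treated SFs versus WT, Plau was at -0.114 (array weights) and -0.0721 (edgeR), and Plat at 0.00183 (median-ratio scaling) and 0.0829 (edgeR). Kng2 was at -0.0113 with infliximab (array weights) against 0.71. With each library left out, hTNFtg versus WT ranged from -0.0863 to 0.59 for Plau and from -0.0439 to 0.38 for F3. With infliximab the range was -0.53 to 0.0697 for Plau, -0.53 to 0.0308 for Plat, -0.40 to 0.0199 for Plaur, -0.14 to 0.0712 for Serpine2 and -0.081 to 0.29 for F3. Against WT it was -0.35 to 0.32 for Plau and -0.31 to 0.24 for Plat.

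Other scalings moved the median of all genes by at most 0.0134. Plau and Bdkrb1 rest on 4 reads each in hTNFtg replicate 1, Serpinb2 was at 0 reads in 8 libraries, and 3 libraries a group leave 95% intervals that include changes of about 1 in size for most genes of the set.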
